A study of Saccharomyces cerevisiae with 24 samples.

Results

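Phosphate uptake, phosphate signalling and polyphosphate storage in budding yeast were followed through 10 genes: the transporters PHO84 and PHO89, the regulators PHO81 and SPL2, the phosphatases PHO5 and PHO8, the phosphate-responsive gene PHM6, and VTC1, VTC3 and VTC4 of the polyphosphate polymerase complex. They were chosen by name from the 7126 genes of the deposited table and not by a rule on their values. Earlier results of these data were known when they were chosen. All 10 had a row and passed the filter on low values. RNA was sequenced from 24 libraries of Saccharomyces cerevisiae strain CEN.PK, with 4 genotypes at 3 times and 2 libraries in each of the 12 groups. The genotypes were rph1Δ, which lacks the H3K36 demethylase gene RPH1; set2Δ, which lacks the H3K36 methyltransferase gene SET2; H3K36A, in which by its label both histone H3 genes, HHT1 and HHT2, carry alanine for lysine 36; and WT, with none of these changes. All 4 were grown to log phase in YPL, described as the rich medium (0 h, untreated), then washed once in SL, the minimal medium, and kept in SL for 1 h or 3 h. The sources used here give neither the phosphate content of the media nor the number of clones behind a genotype, nor whether the 2 libraries of a group came from separate cultures. Every p-value therefore measures only the spread between these libraries, which may be technical.

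When phosphate is scarce, the yeast transcription factor Pho4 enters the nucleus and, with Pho2, drives the PHO regulon. When phosphate is plentiful, the cyclin-dependent kinase Pho80-Pho85 phosphorylates Pho4 and keeps it in the cytoplasm, and Pho81 inhibits that kinase. Pho84 is the high-affinity proton-coupled phosphate transporter, Pho89 a sodium-coupled one, and Spl2 acts against low-affinity phosphate uptake. Pho5 is the secreted repressible acid phosphatase and Pho8 the vacuolar alkaline phosphatase. In the VTC complex, Vtc4 is the catalytic subunit that makes polyphosphate and moves it into the vacuole, Vtc3 is a subunit with a related domain structure, and Vtc1 is a small membrane subunit.

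The upstream sequences are shown because all 10 genes share the E-box core that Pho4 is known to bind. The choice by name did not read these sequences. It drew on genes tied to the phosphate response that Pho4 drives, so the sharing is not an independent result. For PHO84 the line holds the 300 bases farthest from the start codon within 600 bases upstream. For the others it holds the CACGTG farthest from the start codon in that stretch, with any further CACGTG close by. Each line is from the RefSeq S288C genome (R64, the sequence of sacCer3), read 5′ to 3′ on the coding strand, with CACGTG and CACGTT matches in capitals. CEN.PK may differ from it in places.
PHO84 (chrXIII:26101-26400, minus strand): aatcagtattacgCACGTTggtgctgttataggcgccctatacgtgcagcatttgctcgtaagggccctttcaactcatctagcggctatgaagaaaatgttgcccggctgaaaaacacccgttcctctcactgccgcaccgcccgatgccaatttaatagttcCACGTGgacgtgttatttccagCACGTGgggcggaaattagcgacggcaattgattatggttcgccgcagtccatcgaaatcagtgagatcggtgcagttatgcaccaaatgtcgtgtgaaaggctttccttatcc
PHO89 (chrII:798823-798862, minus strand): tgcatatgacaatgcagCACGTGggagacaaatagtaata
SPL2 (chrVIII:375439-375478, minus strand): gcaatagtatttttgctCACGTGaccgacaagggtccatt
PHO5 (chrII:431182-431221, minus strand): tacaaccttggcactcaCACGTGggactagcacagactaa
PHO8 (chrIV:1420762-1420801, minus strand): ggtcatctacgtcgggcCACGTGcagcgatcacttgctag
PHO81 (chrVII:958532-958571, minus strand): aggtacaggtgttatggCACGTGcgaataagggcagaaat
PHM6 (chrIV:1022578-1022617, minus strand): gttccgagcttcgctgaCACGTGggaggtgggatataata
VTC1 (chrV:302632-302671, plus strand): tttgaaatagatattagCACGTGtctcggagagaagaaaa
VTC3 (chrXVI:517307-517380, minus strand): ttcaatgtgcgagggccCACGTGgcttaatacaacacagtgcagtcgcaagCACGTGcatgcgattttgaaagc
VTC4 (chrX:413490-413541, minus strand): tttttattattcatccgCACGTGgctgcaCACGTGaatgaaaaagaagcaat

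Within 600 bases upstream of the start codon, CACGTG (its own reverse complement) occurred in 10 of the 10 genes, and in 7.24% of the 5977 upstream windows of that length in the genome. CACGTT, searched on both strands, occurred in 7 of the 10 and in 18.8% of all windows. At least 2 matches to either motif, which do not overlap each other, were present in 9 of the 10, VTC1 being the exception with 1, and in 3.6% of all windows. SPL2 had 4 CACGTG matches, and PHO84 had 2 of each motif. Of the 16 CACGTG matches upstream of the 10 genes, 14 had no T directly before the core on either strand, against 29.5% of the 491 in all windows. In 7 of the 16, found in 6 genes, GG followed the core on at least 1 strand, as in 7.13% of all. The SPL2 match printed above, at -361 from the start codon, has a T before the core on both strands. Its matches at -147, -90 and -31 have none and are not printed. Of 36 further genes of the phosphate pathway, 13 had a CACGTG, among them CTF19, which lies beside VTC3 on the opposite strand and shares its upstream sites. A match is a description of the letters only.

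**Figure D1:**
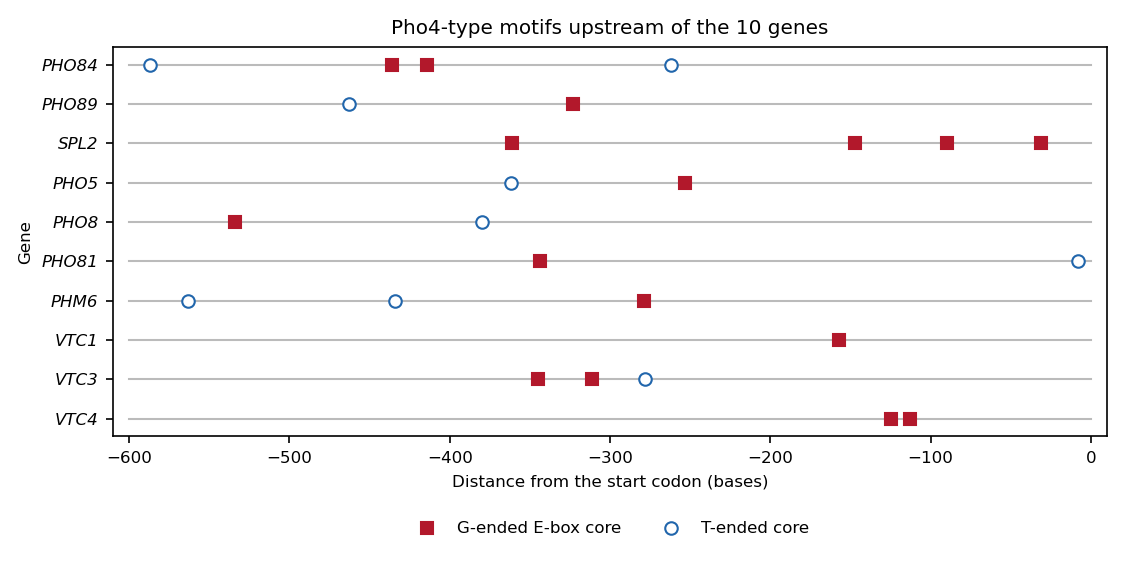
Positions of CACGTG and CACGTT upstream of the 10 genes, in bases from the start codon (x axis), with a line for each gene. Every gene has at least 1 CACGTG, SPL2 has 4, and VTC1 has a single match.

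Total counts per library were 6623458 to 7677684. FPKM, the count per length and per library total, sets levels here and scales by library totals, whereas fold changes come from counts scaled by TMM (trimmed mean of M values), in 1 edgeR quasi-likelihood fit over all groups. A gene is said to have risen, fallen or been called where its p, adjusted by the Benjamini-Hochberg method over 6503 genes, was under 0.05, and ± after a log2 fold change is its SE. Scaling by library totals moved the median of all genes by up to 0.27 on the log2 scale, from -0.27 in WT 3 h against 1 h to 0.23 in set2Δ against WT at 3 h, so calls are given relative to TMM. Values are relative to all RNA in a library, so that fewer transcripts of 1 gene and more of the others cannot be told apart. RPH1 and SET2 followed the labels: RPH1 had 8 counts summed over the 6 rph1Δ libraries against 3336 in WT, and SET2 had 0 in set2Δ against 1641 in WT. In H3K36A, HHT1 and HHT2 had 5 and 2 counts against 16771 and 23721 in WT, so that hardly any RNA of either gene was counted, which a label of a changed codon alone does not say. Mating-type markers set the rph1Δ libraries apart. The 4 alpha-specific genes summed to 1857 to 30149 counts per rph1Δ library against 178 to 562 in WT, the 7 a-specific genes to 203 to 647 against 1494 to 3700, and HMRA1 was at 0 in 6 of 6 rph1Δ libraries against 35 to 118 in WT. Loss of RPH1 and this difference in mating type cannot be told apart in any rph1Δ result below. The set2Δ and H3K36A libraries had a-specific sums of 2099 to 3856 and 1226 to 3791, and alpha-specific sums of 219 to 643 and 194 to 606.

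In WT cells, 8 of the 10 genes fell in the first hour in SL and 1, PHO8, rose. At that time 37.3% of all genes tested were called higher and 34.8% lower, and the median log2 fold change was -1.10 over the 10 genes and 0.06 over all genes. PHO84 had the deepest fall of the 10. By 3 h it had partly returned, PHO89 was close to its level in YPL, and the VTC genes were still below theirs.

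Among the transporters, PHO84 (YML123C, chrXIII:24037-25800, minus strand) stood at 419 and 431 FPKM in the WT libraries at 0 h, 7.36 and 7.41 at 1 h and 35.7 and 24.9 at 3 h. The 3 times did not overlap, and by FPKM the gene ranked 545 of 7126 at 0 h, 5311 at 1 h and 3580 at 3 h. Its fall was 61.7-fold to 1 h (log2 fold change -5.95 ± 0.18, adjusted p = 9.97e-21) and 12.3-fold to 3 h (log2 fold change -3.62 ± 0.15, adjusted p = 1.34e-17). It rose 5.02-fold between 1 h and 3 h (log2 fold change 2.33 ± 0.19, adjusted p = 1.08e-10). PHO89 (YBR296C, chrII:796798-798522, minus strand) had 343 and 321 FPKM at 0 h, 139 and 130.0 at 1 h and 261 and 244 at 3 h. It fell 2.65-fold to 1 h (log2 fold change -1.4 ± 0.07, adjusted p = 2.38e-15) and rose 2.3-fold from there to 3 h (log2 fold change 1.2 ± 0.07, adjusted p = 3.13e-13). Both transporters thus had their lowest WT level at 1 h. At 3 h PHO89 was only slightly below YPL (log2 fold change -0.20 ± 0.07, adjusted p = 0.0149). This call was lost without WT 0 h replicate 1 or WT 3 h replicate 2 (adjusted p = 0.138 and 0.0506, 5.36e-05 to 0.138 over all alternatives).

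Of the regulators, PHO81 (YGR233C, chrVII:954674-958210, minus strand) had 33.4 and 37.9 FPKM in WT at 0 h, 18.1 and 17.5 at 1 h and 21.2 and 19.8 at 3 h. It fell to 1 h (log2 fold change -1.1 ± 0.09, adjusted p = 1.10e-11) and was still lower at 3 h (log2 fold change -0.61 ± 0.09, adjusted p = 5.63e-07). Its rise between 1 h and 3 h (log2 fold change 0.50 ± 0.09, adjusted p = 5.24e-05) was not called with library totals (0.20, adjusted p = 0.0786). SPL2 (YHR136C, chrVIII:374654-375100, minus strand), a small gene with 38 to 104 counts in these WT libraries, had 33.04 and 28.96 FPKM at 0 h, 12.9 and 12.8 at 1 h and 19.3 and 14.9 at 3 h. It fell to 1 h (log2 fold change -1.37 ± 0.28, adjusted p = 0.000109), and at 3 h it stayed below YPL (log2 fold change -0.67 ± 0.27, adjusted p = 0.032). The 3 h call was lost without WT 0 h replicate 1 or WT 3 h replicate 2 (adjusted p = 0.145 and 0.165, 0.00678 to 0.165 over all alternatives). Both regulators were thus highest in YPL.

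The phosphatases went apart. PHO8 (YDR481C, chrIV:1418550-1420250, minus strand) had 58.1 and 67.2 FPKM in WT at 0 h, 148 and 140.3 at 1 h and 106 and 84.9 at 3 h. It was the 1 gene of the 10 that rose, 2.14-fold to 1 h (log2 fold change 1.1 ± 0.09, adjusted p = 2.60e-11) and 1.73-fold to 3 h (log2 fold change 0.79 ± 0.09, adjusted p = 1.88e-08). A small fall between 1 h and 3 h (log2 fold change -0.30 ± 0.09, adjusted p = 0.00567) was lost without WT 1 h replicate 1 or WT 3 h replicate 2 (adjusted p = 0.0664 and 0.27, 6.78e-06 to 0.27 over all alternatives). PHO5 (YBR093C, chrII:429548-430951, minus strand) had few counts in every library, 21 to 76. Its WT levels were 4.35 and 4.86 FPKM at 0 h, 3.27 and 5.13 at 1 h and 2.36 and 2.08 at 3 h, and its call at 3 h against 0 h (log2 fold change -0.86 ± 0.37, adjusted p = 0.0437) was lost without WT 0 h replicate 1, WT 0 h replicate 2, WT 3 h replicate 1 or WT 3 h replicate 2 (adjusted p = 0.0722, 0.143, 0.0885 and 0.134, 0.0171 to 0.143 over all alternatives). PHO5 is 86.5% identical to PHO3, and 12.3% of its 50-base words occur elsewhere in the genome, so that reads may have been split between copies. The other 9 genes had no such shared word.

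PHM6 (YDR281C, chrIV:1022007-1022321, minus strand), named for its response to phosphate and of unknown function, had 111 and 139 counts in WT at 0 h, 19 and 17 at 1 h and 22 and 37 at 3 h. These are 50.03 and 62.8 FPKM, 7.91 and 8.1 FPKM and 10.1 and 16.3 FPKM. After PHO84 it had the deepest fall of the 10, 7.52-fold to 1 h (log2 fold change -2.91 ± 0.37, adjusted p = 1.06e-07) and 3.72-fold to 3 h (log2 fold change -1.9 ± 0.34, adjusted p = 2.36e-05).

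Of the VTC genes, VTC1 (YER072W, chrV:302806-303195, plus strand) had 564 and 569.7 FPKM in WT at 0 h, 421 and 392 at 1 h and 330.2 and 352 at 3 h. VTC3 (YPL019C, chrXVI:514511-517018, minus strand) had 107 and 106 FPKM, 54.7 and 52.5 FPKM and 37.3 and 32.1 FPKM at those times. VTC4 (YJL012C, chrX:411234-413399, minus strand) had 155 and 158 FPKM at 0 h, 98.6 and 98.2 FPKM at 1 h and 92.9 and 86.9 FPKM at 3 h. In each of the 3 genes both YPL libraries lay above all 4 SL libraries. The fall to 1 h was 2.14-fold for VTC3 (log2 fold change -1.09 ± 0.08, adjusted p = 4.53e-12). It was 1.7-fold for VTC4 (log2 fold change -0.77 ± 0.07, adjusted p = 3.79e-10) and 1.5-fold for VTC1 (log2 fold change -0.58 ± 0.10, adjusted p = 1.94e-05). All were also lower at 3 h than at 0 h, VTC3 the most (log2 fold change -1.43 ± 0.09, adjusted p = 4.04e-14). VTC3 alone of them was called between 1 h and 3 h (log2 fold change -0.34 ± 0.09, adjusted p = 0.00238). The call did not hold without WT 3 h replicate 2 (adjusted p = 0.102, 2.26e-06 to 0.102 over all alternatives).

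At 3 h against 0 h in WT, 9 of the 10 fell and PHO8 rose, where 35.6% of all genes tested were called higher and 34% lower. Between 1 h and 3 h, PHO84, PHO89 and PHO81 rose and PHO8 and VTC3 fell (2 higher and 4 lower with library totals), where 27.4% of all genes tested were called higher and 18.7% lower (15.5% and 40.3% with library totals). In FPKM, which is per length, the order in WT at 0 h was VTC1, PHO84, PHO89, VTC4, VTC3, PHO8, PHM6, PHO81, SPL2 and PHO5. Only PHO8 and PHM6 overlapped with their neighbour. At 1 h the order was VTC1, PHO8, PHO89, VTC4, VTC3, PHO81, SPL2, PHM6, PHO84 and PHO5. At 3 h it was VTC1, PHO89, PHO8, VTC4, VTC3, PHO84, PHO81, SPL2, PHM6 and PHO5, with overlap between PHO8 and VTC4, VTC3 and PHO84, and SPL2 and PHM6. PHO84 thus stood in the second place at 0 h, the ninth at 1 h and the sixth at 3 h, and VTC1 kept the first.

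**Figure D2:**
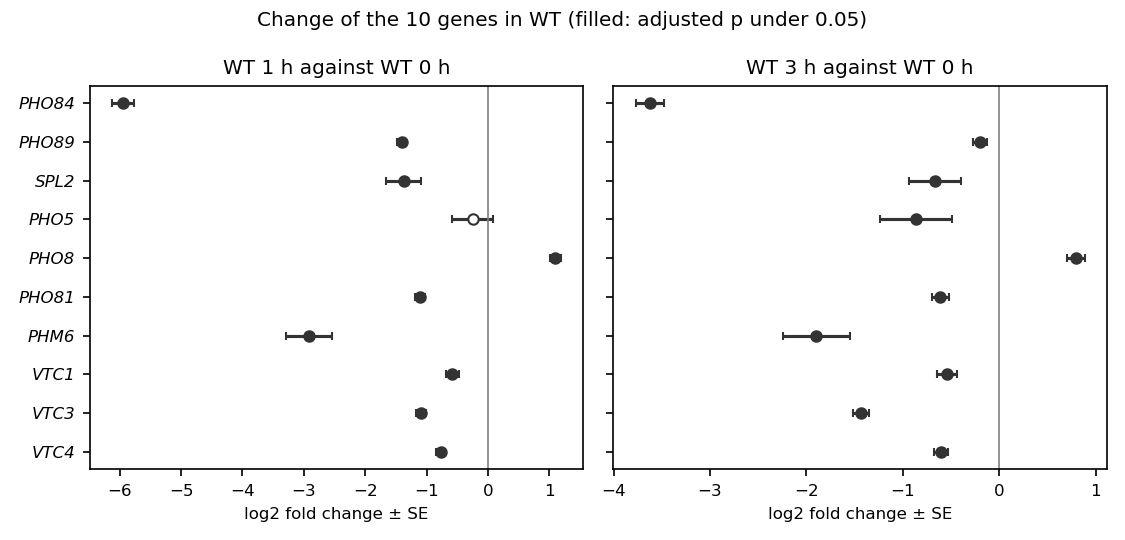
Log2 fold change ± SE (x axis) of each of the 10 genes in WT at 1 h and at 3 h against WT at 0 h, with 2 libraries a group and filled points for adjusted p under 0.05; the panels differ in the range of the x axis. PHO84 lies farthest to the left in both panels (-5.95 and -3.62), and PHO8 alone lies to the right of 0.

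Of the 8 calls between rph1Δ and WT cells, 6 came in rich medium. At 0 h, 6 of the 10 genes were lower than in WT and none was higher, where 2.41% of all genes tested were called higher and 2.41% lower (3.78% and 1.83% with library totals). The median log2 fold change was -0.67 over the 10 genes and 0.00 over all genes. Both transporters, SPL2 and the 3 VTC genes made up the 6. The mating-type difference given above runs with each of these values.

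PHO84 had 134 and 105 FPKM in the rph1Δ libraries at 0 h, against 419 and 431 in WT, and the groups lay far apart (3.69-fold lower, log2 fold change -1.89 ± 0.13, adjusted p = 7.31e-11). PHO89 had 154 and 152 FPKM in rph1Δ against 343 and 321 in WT, 2.25-fold lower (log2 fold change -1.17 ± 0.07, adjusted p = 1.02e-11). SPL2 had 35 and 13 counts in rph1Δ against 104 and 91 in WT (log2 fold change -2.04 ± 0.31, adjusted p = 6.65e-05). The rph1Δ replicates of SPL2 were themselves far apart: without replicate 1 the log2 fold change was -3, adjusted p = 1.11e-05, and without replicate 2 it was -1.43, adjusted p = 0.00765, with -3 to -1.43 the range over all alternatives. For the polymerase subunits, VTC3 had 69.95 and 63.05 FPKM in rph1Δ against 107 and 106 in WT (log2 fold change -0.74 ± 0.08, adjusted p = 4.48e-07), and VTC4 had 121 and 106 in rph1Δ against 155 and 158 in WT (log2 fold change -0.52 ± 0.07, adjusted p = 1.78e-05). VTC1 had 417 and 437 FPKM in rph1Δ against 564 and 569.7 in WT (log2 fold change -0.46 ± 0.10, adjusted p = 0.00698). It was no longer called without WT 0 h replicate 1, WT 0 h replicate 2 or rph1Δ 0 h replicate 1 (adjusted p = 0.0559, 0.0561 and 0.102, 0.000353 to 0.102 over all alternatives). The groups did not overlap in any of the 6. Nor did they in PHO5, PHO8, PHO81 or PHM6, which were not called, so this does not set the 6 apart. The share of all genes without overlap was not computed. PHO81, which inhibits the Pho80-Pho85 kinase, had 30.9 and 30.3 FPKM in rph1Δ against 33.4 and 37.9 in WT and just missed the threshold (log2 fold change -0.28 ± 0.08, adjusted p = 0.0569), which it passed with DESeq2 (-0.29, adjusted p = 0.0352; 0.0352 to 0.477 over all alternatives), RLE scaling and only the groups compared. Nor were PHM6 (log2 fold change -0.68), PHO5 (-0.66) or PHO8 called.

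After 1 h in SL, edgeR called 0 of the 10 genes between rph1Δ and WT. At an unadjusted p under 0.05 there were 2, PHO84 lower and PHO81 higher (log2 fold change 0.22 ± 0.09, adjusted p = 0.107 for PHO81). DESeq2 called 1 and limma 2. Over all genes tested, 5.9% were called higher and 9.27% lower (14.2% and 5.9% with library totals). With library totals 2 of the 10 were higher. The median log2 fold change was 0.13 over the 10 genes and 0.00 over all genes. PHO84 had 6.34 and 3.26 FPKM in rph1Δ at 1 h against 7.36 and 7.41 in WT (log2 fold change -0.72 ± 0.26, adjusted p = 0.0617), so both rph1Δ libraries were lower but edgeR did not call the difference; DESeq2 did (-0.73, adjusted p = 0.0353; 0.0121 to 0.453 over all alternatives), as did edgeR with no filter and with only the groups compared. At 3 h, PHO84 was lower and PHO8 higher, where 11.6% of all genes tested were called higher and 16.4% lower (21.7% and 7.64% with library totals). PHO84 had 12.4 and 13.8 FPKM in rph1Δ at 3 h against 35.7 and 24.9 in WT (log2 fold change -1.34 ± 0.18, adjusted p = 1.03e-05). PHO8 had 137 and 139 FPKM in rph1Δ against 106 and 84.9 in WT (log2 fold change 0.40 ± 0.09, adjusted p = 0.00179). This fell short without WT 3 h replicate 2 (adjusted p = 0.0931, 0.000169 to 0.0931 over all alternatives). The WT libraries at 3 h were among the less alike pairs, at a chi-square of 12.8 per degree of freedom over genes, where the 12 pairs ran from 2.72 to 14.9.

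The test of the difference in response called 6 of the 10 genes in rph1Δ to 1 h, all with a positive value, where 8.52% of all genes were called in either direction. PHO89 stood at 154 and 152 FPKM in rph1Δ at 0 h, 167 and 154 at 1 h and 256 and 248 at 3 h, with no overlap between 3 h and the earlier times and no fall at 1 h such as WT had. Its rph1Δ change less its WT change was 1.32 ± 0.10 (adjusted p = 1.50e-09) to 1 h and 1.03 ± 0.10 (adjusted p = 2.82e-07) to 3 h. For VTC3 it was 0.81 ± 0.12 (adjusted p = 2.48e-05) to 1 h and 0.73 ± 0.12 (adjusted p = 0.000461) to 3 h. VTC3 had 69.95 and 63.05 FPKM in rph1Δ at 0 h, 64.8 and 56.8 at 1 h and 35.7 and 40.03 at 3 h, so that its libraries at 0 h and 1 h overlapped. For PHO84 the difference to 1 h, 1.17 ± 0.30 (adjusted p = 0.012), was lost without rph1Δ 1 h replicate 1 (adjusted p = 0.45, 0.00104 to 0.45 over all alternatives). The difference to 3 h was not called (0.55 ± 0.22, adjusted p = 0.122). To 3 h, 4 of the 10 were called, all with a positive value, where 6.77% of all genes were (44.5% of these positive, 64.8% with library totals and 59.1% with RLE scaling).

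**Figure D3:**
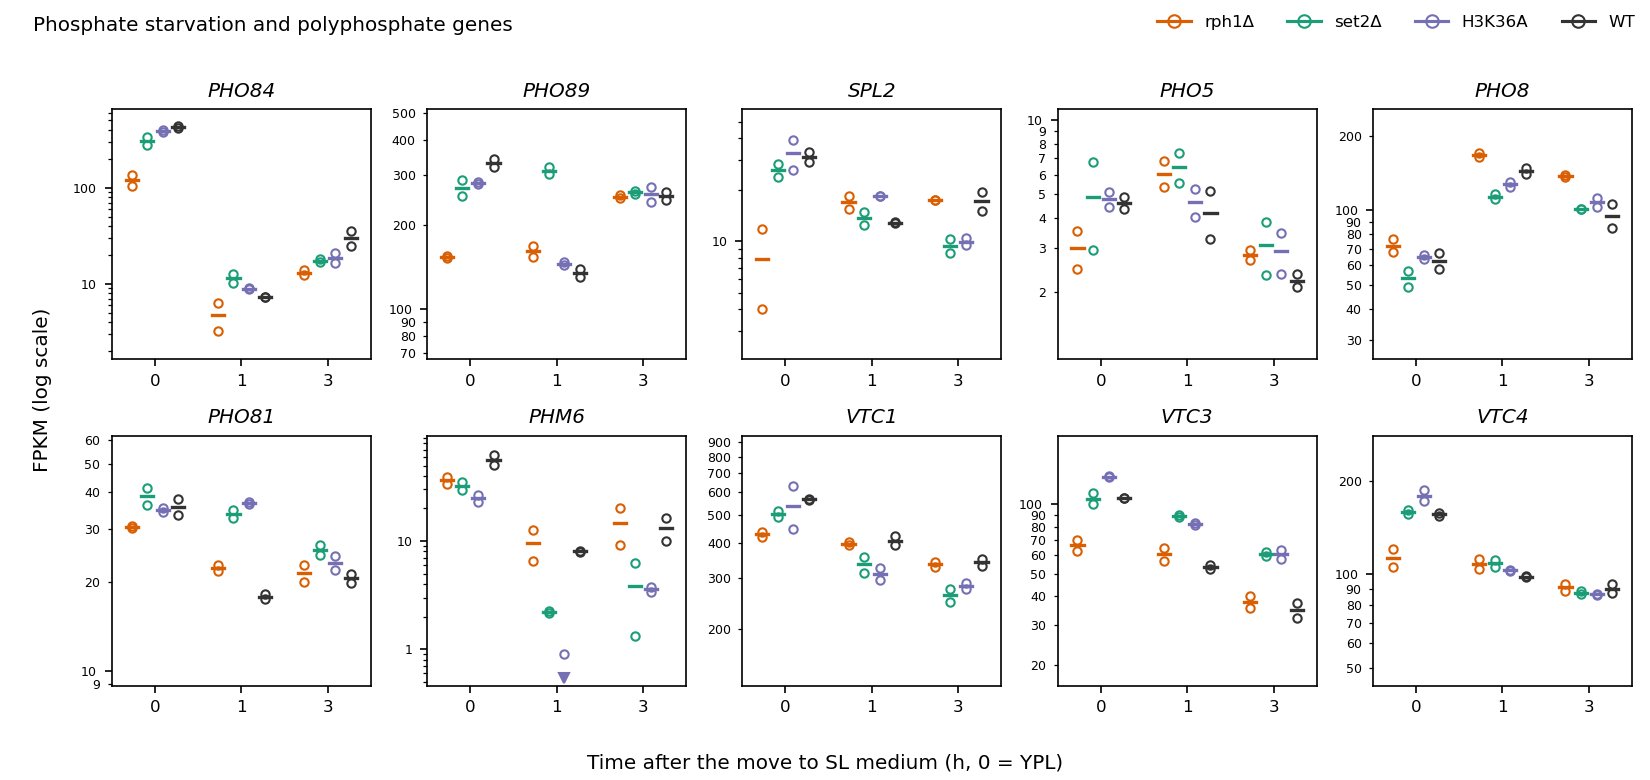
FPKM of the 10 genes on log scales (y axes, each with its own range) in every library at 0 h, 1 h and 3 h (x axis), with circles for libraries, bars for the mean of 2, and a triangle for the 1 library with 0 counts of PHM6. In all 4 genotypes PHO84 is lower at 1 h and 3 h than at 0 h, PHO89 at 1 h stands at 302 and 320 in set2Δ, and VTC3 at 3 h is higher in set2Δ and H3K36A than in WT.

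By their labels, set2Δ cells lack the enzyme that methylates H3 lysine 36, and H3K36A cells have no lysine there. The counts check the first label, and for the second they show only the near absence of HHT1 and HHT2 RNA given above. Both comparisons use the same WT libraries, so their values are given side by side and their likeness is not read as a result. At 0 h, 3 of the 10 genes were lower and none higher in set2Δ, where 13.3% of all genes tested were called higher and 8.73% lower, and 2 were lower and 1 higher in H3K36A (2 and 2 with library totals), where 13.4% of all genes tested were called higher and 11.1% lower (16.8% and 7.4% with library totals). At 1 h, 3 were lower and 3 higher in set2Δ (3 and 4 with library totals), where 20.4% of all genes tested were called higher and 27.3% lower (33.7% and 13.9% with library totals). In H3K36A at 1 h, 3 were lower and 2 higher (2 and 2 with library totals), where 20% of all genes tested were called higher and 26.7% lower (30.7% and 16.3% with library totals). At 3 h, 6 were lower and 1 higher in set2Δ (4 and 2 with library totals), where 20.6% of all genes tested were called higher and 27.8% lower (35.7% and 12% with library totals). In H3K36A at 3 h, 6 were lower and 1 higher (4 and 1 with library totals), where 18.7% of all genes tested were called higher and 27.6% lower (34% and 11.3% with library totals).

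PHO84 had 274 and 331 FPKM in set2Δ and 373 and 399.7 in H3K36A at 0 h, against 419 and 431 in WT. It was lower in set2Δ (log2 fold change -0.52 ± 0.12, adjusted p = 0.00308) and was not called in H3K36A (log2 fold change -0.20 ± 0.12, adjusted p = 0.28), though both H3K36A libraries lay below both of WT. The set2Δ call was lost with limma at both pseudocounts (-0.50, adjusted p = 0.108 and -0.50, adjusted p = 0.157; 0.00144 to 0.157 over all alternatives). At 1 h it had 10.3 and 12.8 FPKM in set2Δ and 8.9 and 9.06 in H3K36A, against 7.36 and 7.41 in WT, and edgeR called neither difference. In set2Δ, where both libraries lay above WT, it was called higher with library totals (0.65, adjusted p = 0.0206), with limma at both pseudocounts (adjusted p = 0.0309 and 0.0359) and with only the groups compared (adjusted p = 0.0197; 0.0197 to 0.474 over all alternatives). By 3 h PHO84 had 16.8 and 18.1 FPKM in set2Δ and 16.6 and 21.02 in H3K36A, against 35.7 and 24.9 in WT. All 4 mutant libraries were then below both WT libraries, by 2.06-fold in set2Δ (log2 fold change -1.04 ± 0.17, adjusted p = 1.74e-05) and 1.9-fold in H3K36A (log2 fold change -0.92 ± 0.17, adjusted p = 7.96e-05). In H3K36A the change from 0 h to 3 h was also larger than in WT (-0.73 ± 0.21, adjusted p = 0.0107). The difference was not called without WT 3 h replicate 1 or H3K36A 3 h replicate 1 (adjusted p = 0.102 and 0.109, 0.00172 to 0.255 over all alternatives), nor with library totals.

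PHO89 gave the 1 difference between set2Δ and H3K36A. At 1 h it had 302 and 320.0 FPKM in set2Δ, 143 and 147 in H3K36A and 139 and 130.0 in WT, so that set2Δ stood apart from the other genotypes. It was 2.08-fold higher in set2Δ than in H3K36A (log2 fold change 1.05 ± 0.07, adjusted p = 2.56e-11) and 1.98-fold higher than in WT (log2 fold change 0.99 ± 0.07, adjusted p = 4.45e-11). H3K36A was not called against WT (log2 fold change -0.07 ± 0.07, adjusted p = 0.489). In set2Δ the libraries at 1 h were above those at 0 h, 252 and 288 FPKM, and the change less the WT change was 1.32 ± 0.10 (adjusted p = 2.62e-10). At 0 h PHO89 was lower in set2Δ (log2 fold change -0.33 ± 0.07, adjusted p = 0.0014) and, with 282 and 278 FPKM, in H3K36A (log2 fold change -0.30 ± 0.07, adjusted p = 0.00262). The set2Δ call was lost with only the groups compared (-0.32, adjusted p = 0.0629; 9.39e-06 to 0.0629 over all alternatives), and the H3K36A call without WT 0 h replicate 1 (adjusted p = 0.0556, 8.43e-05 to 0.0556 over all alternatives). After 3 h in SL PHO89 had 257 and 264 FPKM in set2Δ and 272 and 240.1 in H3K36A, against 261 and 244 in WT. These overlap, and the calls there (log2 fold change -0.20 and -0.21) turned to 0.04 and 0.02, above 0, with library totals. In set2Δ the call was also lost without WT 3 h replicate 1, set2Δ 3 h replicate 1 or set2Δ 3 h replicate 2 (adjusted p = 0.111, 0.117 and 0.0599, 0.025 to 0.673 over all alternatives), and in H3K36A without WT 3 h replicate 1 or H3K36A 3 h replicate 2 (adjusted p = 0.0918 and 0.21, 0.0121 to 0.874 over all alternatives).

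PHO81, the kinase inhibitor, was called higher in both mutants at 1 h and in neither at 0 h or 3 h. It had 32.8 and 34.9 FPKM in set2Δ and 37.1 and 36.4 in H3K36A at 1 h, against 18.1 and 17.5 in WT, 1.63-fold higher in set2Δ (log2 fold change 0.70 ± 0.09, adjusted p = 2.62e-07) and 1.83-fold higher in H3K36A (log2 fold change 0.87 ± 0.09, adjusted p = 7.20e-09). At 0 h the mutants had 36.4 and 41.4 FPKM in set2Δ and 34.4 and 35.3 in H3K36A. At 3 h they had 26.6 and 24.6 in set2Δ and 24.3 and 21.95 in H3K36A, all above the 21.2 and 19.8 in WT. With TMM the 3 h log2 fold changes were 0.07 and -0.06, so the lack of a call there is relative to TMM. The change to 1 h less the WT change was 0.61 ± 0.12 in set2Δ (adjusted p = 0.000317) and 0.96 ± 0.12 in H3K36A (adjusted p = 7.24e-07). SPL2, which acts against low-affinity uptake, was called at 3 h and at neither other time, with 33 and 27 counts in set2Δ and 32 and 31 in H3K36A against 60 and 48 in WT. It was lower in set2Δ (log2 fold change -1.1 ± 0.32, adjusted p = 0.00625). Its call was lost without WT 3 h replicate 1 or set2Δ 3 h replicate 2 (adjusted p = 0.0545 and 0.0577, 0.00455 to 0.0577 over all alternatives). It was also lower in H3K36A (log2 fold change -1.02 ± 0.32, adjusted p = 0.0111). It missed the threshold without WT 3 h replicate 1 or H3K36A 3 h replicate 1 (adjusted p = 0.0819 and 0.0821, 0.00982 to 0.0821 over all alternatives), and with limma at both pseudocounts.

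PHO8, the vacuolar phosphatase, had 111 and 116 FPKM in set2Δ and 125 and 131 in H3K36A at 1 h, against 148 and 140.3 in WT. Both were lower (log2 fold change -0.56 ± 0.09, adjusted p = 7.11e-06 in set2Δ; log2 fold change -0.35 ± 0.09, adjusted p = 0.00162 in H3K36A), and no mutant library overlapped WT. The H3K36A call was lost with library totals (-0.17, adjusted p = 0.124) and with limma at both pseudocounts (adjusted p 0.000423 to 0.168 over all alternatives). Its call in set2Δ at 0 h (log2 fold change -0.27 ± 0.09, adjusted p = 0.0445) came with groups that did not overlap but was lost without WT 0 h replicate 2 or set2Δ 0 h replicate 1 (adjusted p = 0.403 and 0.28, 0.0195 to 0.403 over all alternatives), and also with library totals, limma and only the groups compared. PHO5, the acid phosphatase, was called in 0 of the 18 comparisons that involve a mutant, with log2 fold changes of -0.66 to 1.09 and edgeR adjusted p of 0.182 to 1. At an unadjusted p under 0.05 there was 1 of the 18, and DESeq2 and limma called 0.

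PHM6 was called lower in H3K36A at all 3 times and in set2Δ at 1 h and 3 h. In H3K36A it had 52 and 59 counts at 0 h, 0 and 2 at 1 h and 9 and 7 at 3 h, against 111 and 139, 19 and 17 and 22 and 37 in WT. At 1 h its 2 counts against 36 in WT gave a ratio per total count of 0.0577 with an exact 95% interval of 0.00673 to 0.224, for counting error only (adjusted p = 0.00042). It was called at 0 h (log2 fold change -1.24 ± 0.31, adjusted p = 0.00433) and at 3 h (log2 fold change -2.11 ± 0.53, adjusted p = 0.00196). The call at 0 h was lost without WT 0 h replicate 2 or H3K36A 0 h replicate 1 (adjusted p = 0.0607 and 0.0507, 0.00141 to 0.314 over all alternatives), and with limma at both pseudocounts. That at 3 h was lost with limma at log2(FPKM + 0.1) (-1.82, adjusted p = 0.0677; 0.000314 to 0.0677 over all alternatives). In set2Δ it had 70 and 77 counts at 0 h, 5 and 5 at 1 h and 3 and 14 at 3 h. At 0 h it was not called in edgeR with TMM (log2 fold change -0.82 ± 0.30, adjusted p = 0.0525) but was with RLE scaling (-0.86, adjusted p = 0.0394; 0.0277 to 0.529 over all alternatives), no filter and only the groups compared. At 1 h it was lower (log2 fold change -2.05 ± 0.63, adjusted p = 0.00951). The result was not called without set2Δ 1 h replicate 2 (adjusted p = 0.0506, 0.00289 to 0.0675 over all alternatives), nor with limma at log2(FPKM + 0.1) (-1.81). At 3 h it was lower too (log2 fold change -2.03 ± 0.52, adjusted p = 0.00222), but its replicates there were far apart: the log2 fold change was -1.3, adjusted p = 0.0589 without replicate 1 and -3.52, adjusted p = 0.000896 without replicate 2, with -3.52 to -1.3 the range over all alternatives. That call was lost without WT 3 h replicate 2 or set2Δ 3 h replicate 1 (adjusted p = 0.0538 and 0.0589, 0.000346 to 0.0589 over all alternatives).

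In SL medium VTC3 was higher and VTC1 lower than in WT, in both mutants and at both times, and these directions held with library totals and RLE scaling. VTC3 had 90.2 and 88.5 FPKM in set2Δ and 82.8 and 80.95 in H3K36A at 1 h, against 54.7 and 52.5 in WT, and was higher in both (log2 fold change 0.52 ± 0.08, adjusted p = 1.11e-05 in set2Δ; log2 fold change 0.43 ± 0.08, adjusted p = 0.000113 in H3K36A). VTC3 at 3 h had 59.96 and 62.03 FPKM in set2Δ and 63.7 and 57.8 in H3K36A, against 37.3 and 32.1 in WT (log2 fold change 0.57 ± 0.09, adjusted p = 7.54e-06 in set2Δ; log2 fold change 0.57 ± 0.09, adjusted p = 8.51e-06 in H3K36A). No mutant library overlapped WT at either time. At 0 h VTC3 was called in H3K36A only, with 131 and 132 FPKM against 107 and 106 in WT (log2 fold change 0.24 ± 0.08, adjusted p = 0.0247), and that call was lost without WT 0 h replicate 1, WT 0 h replicate 2, H3K36A 0 h replicate 1 or H3K36A 0 h replicate 2 (adjusted p = 0.102, 0.112, 0.0885 and 0.0885, 0.00837 to 0.112 over all alternatives).

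VTC1 had 358 and 314 FPKM in set2Δ and 326 and 296 in H3K36A at 1 h, against 421 and 392 in WT (log2 fold change -0.50 ± 0.11, adjusted p = 0.000406 in set2Δ; log2 fold change -0.56 ± 0.11, adjusted p = 0.000118 in H3K36A). VTC1 at 3 h had 275 and 248 FPKM in set2Δ and 276 and 289.9 in H3K36A, against 330.2 and 352 in WT (log2 fold change -0.63 ± 0.11, adjusted p = 4.33e-05 in set2Δ; log2 fold change -0.50 ± 0.11, adjusted p = 0.000535 in H3K36A). All 8 of these libraries were below WT at the same time. With limma the calls in set2Δ at 1 h and in H3K36A at 3 h were lost, at log2(FPKM + 1) with -0.28, adjusted p = 0.0524 (4.32e-07 to 0.0546 over all alternatives) and -0.27, adjusted p = 0.0613 (0.000312 to 0.0627 over all alternatives). VTC4, the catalytic subunit, had 86.3 and 88.4 FPKM in set2Δ and 86.8 and 85.96 in H3K36A at 3 h, against 92.9 and 86.9 in WT. Its calls at 3 h (log2 fold change -0.29 in set2Δ and -0.29 in H3K36A) were lost with library totals (-0.04 and -0.06), with limma at both pseudocounts and with only the groups compared.

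**Figure D4:**
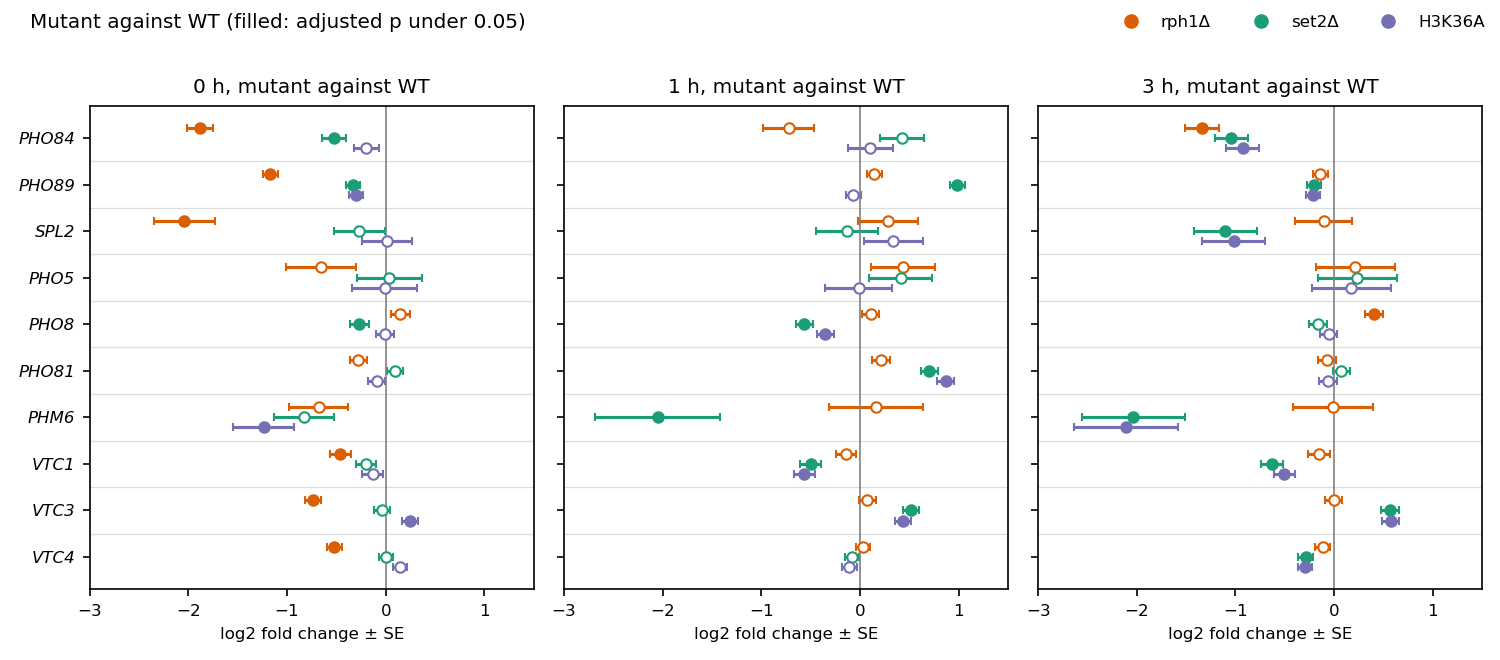
Log2 fold change ± SE (x axis) of the 10 genes in rph1Δ, set2Δ and H3K36A against WT at each time, with filled points for adjusted p under 0.05; PHM6 in H3K36A at 1 h, with 2 counts, is left out. PHO84 has its lowest value in rph1Δ at 0 h (-1.89), PHO89 is highest in set2Δ at 1 h (0.99), and VTC3 lies above 0 in set2Δ and H3K36A at 1 h and 3 h.

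Between set2Δ and H3K36A themselves, edgeR called 0 of the 10 genes at 0 h, with 4 at an unadjusted p under 0.05, 1 by DESeq2 and 0 by limma, where 2.72% of all genes were called (56.5% of these positive, 44.9% with library totals). At 1 h it called PHO89 alone, where 29.5% of all genes were. At 3 h it called 0 of the 10, with 0 at an unadjusted p under 0.05 and 0 by DESeq2 or limma, where 4.69% of all genes were. A missed threshold does not show that the genotypes were alike. Of the responses from 0 h, 4 of the 10 differed from WT in set2Δ to 1 h (28.1% of all genes, 38.9% of these positive, 66.2% with library totals and 52.6% with RLE scaling), all 4 positive. In H3K36A to 1 h, 4 differed (27.9% of all genes, 35.5% of these positive, 52.8% with library totals and 48.6% with RLE scaling), 1 positive and 3 negative, against 2 positive and 0 negative with library totals. To 3 h, 3 of the 10 differed in set2Δ (32.6% of all genes, 41.6% of these positive, 70.8% with library totals) and 3 in H3K36A (27.2% of all genes, 39.1% of these positive, 67.2% with library totals and 51.1% with RLE scaling), 1 positive and 2 negative in each, against 2 positive and 0 negative in set2Δ and 1 and 0 in H3K36A with library totals.

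Over the 9 comparisons of a mutant with WT, VTC3 was called higher in 5 and lower in 1, PHO89 higher in 1 and lower in 5, and PHO81 higher in 2. PHO84, PHM6 and VTC1 were each lower in 5 and higher in none, SPL2 and VTC4 lower in 3 and higher in none, and PHO8 lower in 3 and higher in 1. Over all genes tested, 2.41% to 20.6% were called higher and 2.41% to 27.8% lower in these comparisons. The 3 mutants share the WT libraries of each time, and the calls are relative to TMM. Those lost with library totals include PHO89 and VTC4 at 3 h in set2Δ and H3K36A.

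The 36 other genes of the pathway, in 5 lists (13 regulators and inositol pyrophosphate enzymes, 8 transporters, 6 phosphatases and nucleotidases, 5 polyphosphate enzymes and 4 further regulon or SPX-domain genes), were all tested. In WT at 1 h against 0 h, 16 of the 36 rose and 11 fell, with a median log2 fold change of 0.21, where that of the 10 genes was -1.10 and 37.3% of all genes tested were called higher and 34.8% lower. Of the 8 other transporters, 6 fell and 2 rose. GIT1, the glycerophosphoinositol permease, had the deepest fall of the 36 (59.97 ± 1.9 FPKM at 0 h, 7.38 ± 0.2 at 1 h and 9.08 ± 0.3 at 3 h, SD, n = 2 each; log2 fold change -3.12 ± 0.12, adjusted p = 5.03e-18). PHM7, a gene of the regulon list, had the largest rise (3.82 ± 0.14 FPKM at 0 h, 272 ± 4 at 1 h and 203 ± 44 at 3 h; log2 fold change 6.05 ± 0.19, adjusted p = 3.19e-20 to 1 h). At 3 h against 0 h, 14 rose and 9 fell (11 and 16 with library totals), with PHM7 again highest (5.92) and GIT1 lowest (-2.53). Between 1 h and 3 h, 11 rose and 6 fell (6 and 21 with library totals). Over all genes tested, 35.6% and 34% were called higher and lower at 3 h against 0 h, and 27.4% and 18.7% at 3 h against 1 h. PHO92, an RNA-binding protein gene with 6 to 28 counts in these libraries, was highest (1.91) and PIC2, a mitochondrial phosphate and copper carrier, lowest (-0.84).

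In rph1Δ at 0 h, 1 of the 36 was higher and 6 were lower than in WT. Over all genes the shares higher and lower were 2.41% and 2.41% at 0 h, 5.9% and 9.27% at 1 h and 11.6% and 16.4% at 3 h. Of the 6, GIT1 had the deepest fall, with 31 ± 2.1 FPKM in rph1Δ against 59.97 ± 1.9 in WT (SD, n = 2 each; log2 fold change -1.01 ± 0.10, adjusted p = 1.36e-07). The 1 that was higher, DIA3, differed by about as much, with 6.01 ± 0.45 FPKM in rph1Δ against 2.93 ± 0.57 in WT (log2 fold change 0.98 ± 0.25, adjusted p = 0.018); it was named after its values were seen. The DIA3 call was lost without WT 0 h replicate 2, rph1Δ 0 h replicate 1 or rph1Δ 0 h replicate 2 (adjusted p = 0.209, 0.157 and 0.0535, 0.00496 to 0.209 over all alternatives), and with only the groups compared. In rph1Δ at 1 h, 3 were higher and 4 lower (9 and 2 with library totals), and at 3 h the counts were 3 and 6 (8 and 3 with library totals). PHO92 was higher at 1 h (log2 fold change 1.45 ± 0.42, adjusted p = 0.0204). This difference was lost without WT 1 h replicate 1, WT 1 h replicate 2 or rph1Δ 1 h replicate 2 (adjusted p = 0.0527, 0.159 and 0.154, 0.00743 to 0.159 over all alternatives).

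In set2Δ, 8 of the 36 were higher and 5 lower at 0 h (8 and 3 with library totals), 11 higher and 10 lower at 1 h (17 and 7 with library totals), and 8 higher and 15 lower at 3 h (11 and 10). In H3K36A the counts were 9 higher and 4 lower at 0 h (10 and 2 with library totals), 10 higher and 12 lower at 1 h (15 and 7 with library totals), and 9 higher and 14 lower at 3 h (12 and 8). Over all genes tested, the shares higher and lower in set2Δ were 13.3% and 8.73% at 0 h, 20.4% and 27.3% at 1 h and 20.6% and 27.8% at 3 h, and in H3K36A 13.4% and 11.1% at 0 h, 20% and 26.7% at 1 h and 18.7% and 27.6% at 3 h, with those under library totals at 1 h and 3 h given above. PHO90, a low-affinity phosphate transporter, had the largest difference. It had 42.4 ± 1.5 FPKM in set2Δ and 31.7 ± 1 in H3K36A at 1 h, against 6.83 ± 0.84 in WT (SD, n = 2 each), and the log2 fold change was 2.41 ± 0.12 (adjusted p = 4.97e-14) in set2Δ and 2.04 ± 0.13 (adjusted p = 1.15e-12) in H3K36A. At 3 h it was 1.3 ± 0.11 in set2Δ and 1.04 ± 0.12 in H3K36A. In WT at 0 h its level was 23.4 ± 1.1 FPKM. VTC5, a further subunit of the VTC complex, was higher in set2Δ at 0 h, 1 h and 3 h (log2 fold change 1.03, 1.3 and 1.26) and in H3K36A at 3 h (1.16). Calls with a log2 fold change under 1 in size are not listed, so the lack of H3K36A at 0 h and 1 h is no sign of likeness to WT. It had 45.9 ± 3.9 FPKM in set2Δ and 33.6 ± 1.6 in H3K36A at 1 h against 15.9 ± 0.25 in WT.

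All 6 other phosphatases and nucleotidases (PHO3, PHO11, PHO12, PHO13, DIA3 and PHM8) were lower in set2Δ at 3 h and in H3K36A at 3 h, with medians of -0.68 and -0.72, against -0.06 and -0.06 over all genes. With library totals all 6 stayed below 0 in both, and 4 of the 6 were called in each. DIA3, an acid phosphatase homolog, had the largest difference, with 10.7 ± 0.8 FPKM in set2Δ against 22.6 ± 2.3 in WT (log2 fold change -1.32 ± 0.17, adjusted p = 6.36e-07). It shares 50 bases with a neighbouring gene. PHO11 and PHO12 are 99.7% identical, so reads of either may be counted for both or for neither. PHO92 was higher in H3K36A at 0 h (log2 fold change 1.77 ± 0.45, adjusted p = 0.00471). This call was lost without WT 0 h replicate 2 (adjusted p = 0.0916, 0.0016 to 0.0916 over all alternatives). The gene was lower in set2Δ at 3 h (log2 fold change -1.55 ± 0.40, adjusted p = 0.00246).

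**Figure D5:**
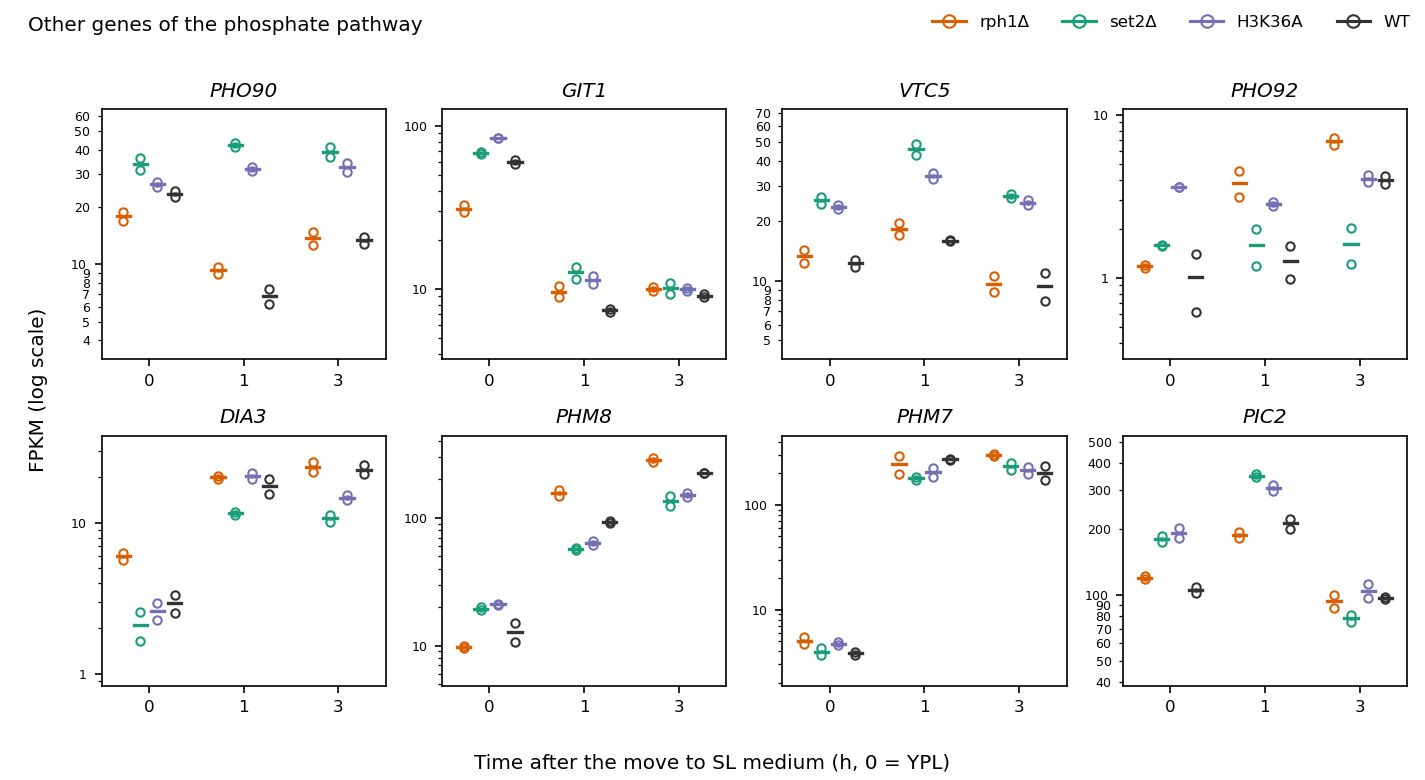
FPKM in every library (y axes, log scales with their own ranges) of 8 other genes of the pathway at 0 h, 1 h and 3 h (x axis), with circles for libraries and bars for the mean of 2. PHO90 and VTC5 are higher in set2Δ and H3K36A than in WT at 1 h and 3 h, and GIT1 at 0 h is lower in rph1Δ than in WT.

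Outside the pathway lists, the 5 genes whose pattern over the 12 group means was most like that of PHO84 had Pearson correlations of 0.973 to 0.985 on log2(CPM + 1), and these points share libraries and scaling. They were YOR309C (0.985), YGR017W (0.985), RPO26 (0.979), a subunit shared by the RNA polymerases, SPE4 (0.976), spermine synthase, and SEC65 (0.973), of the signal recognition particle. YOR309C overlaps NOP58 by 254 bases and YGR017W overlaps YGR018C by 316, so their counts may hold reads of the neighbour. Of the 10 genes, VTC4 (0.822), PHM6 (0.808) and VTC1 (0.757) followed PHO84 most closely. PHO81 (0.622), VTC3 (0.616), SPL2 (0.555) and PHO89 (0.487) came next, PHO5 had 0.00144, and PHO8 ran opposite (-0.964). How common such correlations are over all genes was not tested, so they only rank the 10 genes.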

How the data were processed

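The deposited table, made by the authors, holds raw counts per gene and, per the file headers, FPKM that the authors made from them. The deposited FPKM were the count over gene length and library total in 100% of values, within a tolerance of 0.0051. Per the submitters' processing notes, the tools were HTSeq 0.6.1, HISAT2 2.0.1 and cutadapt 1.9.1, and the build was sacCer3. The sources used here give neither strand nor the handling of reads that map to several genes, so near-identical or overlapping genes are marked where named. Libraries were joined to groups by the sample titles in the column headers.

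Counts were tested with the edgeR 4.0.16 quasi-likelihood test (R 4.3.3), TMM factors 0.823 to 1.19, in 1 fit of 12 groups with no covariate (12 residual degrees of freedom, common biological coefficient of variation 6.73%). The 6503 genes that reached 1 FPKM in 2 or more libraries were tested, and 623 were left out. Adjusted p-values are Benjamini-Hochberg values over these genes within a comparison, and 0.05 was the threshold. The SE is the size of the log2 fold change over the square root of F. Of 21 comparisons, 9 set a mutant against WT at 1 time, 6 set its change from 0 h against that of WT, 3 set set2Δ against H3K36A, and 3 followed WT over time. The fit was tested on simulated counts with known changes. Alternatives were DESeq2 1.42.0, RLE scaling, library totals, limma-trend 3.58.1 on log2(FPKM + 1) and log2(FPKM + 0.1), no filter on low values, only the groups compared, the replicate number as a block, and each library left out in turn. Depth, 6623458 to 7677684 counts per library, limits PHM6, PHO5, SPL2 and PHO92 most, and intervals cover counting error only.

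The 10 genes, the 5 further lists and the tests were chosen with earlier results of these data known. The text names the 10 genes, each of the 36 listed genes called between a mutant and WT with a log2 fold change of at least 1 in size, the highest and lowest called of the 36 in each WT comparison, the 5 genes most like PHO84, and the targeted genes. The members of the phosphatase list, CTF19 and the overlapping neighbours are named beside counts they belong to. The listed symbols VTC5, PPN2 and HOR2 were found in the table through RefSeq locus tags. Upstream windows were read from RefSeq R64, where 6048 gene identifiers matched and 6036 had identical coordinates.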

Additional observations from a re-analysis of the deposited data

Results flagged for a closer look

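Of the tests of a difference between groups, 25 results for the 10 genes passed the threshold: 24 differences between a mutant's change from 0 h and that of WT, and PHO89 in set2Δ against H3K36A at 1 h. Values are log2, the mutant's change less the WT change, and every change in 1 mutant shares its 0 h libraries and those of WT. In rph1Δ to 1 h they were 2.33 for SPL2, 1.32 for PHO89, 1.17 for PHO84, 0.81 for VTC3, 0.55 for VTC4 and 0.49 for PHO81. To 3 h in rph1Δ they were 1.94 for SPL2, 1.03 for PHO89, 0.73 for VTC3 and 0.40 for VTC4. All 10 rph1Δ values were positive, so the genes fell less or rose more than in WT, and the mating-type difference of those libraries runs with each.

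In set2Δ to 1 h the values were 1.32 for PHO89, 0.95 for PHO84, 0.61 for PHO81 and 0.56 for VTC3, and to 3 h 0.61 for VTC3, -0.43 for VTC1 and -0.29 for VTC4. In H3K36A to 1 h they were 0.96 for PHO81, -0.34 for PHO8, -0.43 for VTC1 and -2.88 for PHM6, the last resting on 2 counts at 1 h and so no measure of size. To 3 h in H3K36A they were -0.73 for PHO84, 0.33 for VTC3 and -0.44 for VTC4. PHO89 at 1 h was 1.05 higher in set2Δ than in H3K36A.

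Of the 25, 12 kept their direction and call under every alternative: PHO89 in rph1Δ at both times, in set2Δ to 1 h and against H3K36A; VTC3 in rph1Δ and in set2Δ at both times; PHO81 in set2Δ and H3K36A to 1 h; and SPL2 and VTC4 in rph1Δ to 1 h. SPL2 in rph1Δ to 1 h was 3.29, adjusted p = 4.06e-05 without rph1Δ 0 h replicate 1 and 1.72, adjusted p = 0.00976 without replicate 2. Among the others, PHO81 in rph1Δ to 1 h was lost without WT 0 h replicate 2 or WT 1 h replicate 2 (adjusted p = 0.081 and 0.0535, 0.00287 to 0.081 over all alternatives), PHO84 in rph1Δ to 1 h without rph1Δ 1 h replicate 1 (adjusted p = 0.45, 0.00104 to 0.45 over all alternatives), PHO84 in set2Δ to 1 h without set2Δ 1 h replicate 2 (adjusted p = 0.0563, 0.000343 to 0.0563 over all alternatives), PHO84 in H3K36A to 3 h without WT 3 h replicate 1 or H3K36A 3 h replicate 1 (adjusted p = 0.102 and 0.109, 0.00172 to 0.255 over all alternatives), and SPL2 in rph1Δ to 3 h without rph1Δ 0 h replicate 2 (adjusted p = 0.0585, 0.000618 to 0.0585 over all alternatives). The remaining calls were lost more often: PHO8 in H3K36A to 1 h without 7 of the 8 libraries in turn (adjusted p up to 0.239), VTC1 without 5 of the 8 libraries in turn (adjusted p up to 0.387) and PHM6 without 5 of the 8 libraries in turn (adjusted p up to 0.226). VTC3 in H3K36A to 3 h was lost without 6 of the 8 libraries in turn (adjusted p up to 0.178), VTC1 in set2Δ to 3 h without 5 of the 8 libraries in turn (adjusted p up to 0.131) and VTC4 without 6 of the 8 libraries in turn (adjusted p up to 0.0951), and VTC4 in rph1Δ to 3 h without 5 of the 8 libraries in turn (adjusted p up to 0.11). VTC1 and VTC4 in set2Δ to 3 h also lost their calls with RLE scaling and with library totals. Over all alternatives their values ran up to -0.21 and -0.07, and their adjusted p up to 0.321 and 0.647. With library totals the 3 negative calls in H3K36A to 1 h were lost too, as was that of PHO84 in H3K36A to 3 h. VTC4 in H3K36A to 3 h kept its call whichever library was left out, but lost it with library totals (-0.26, adjusted p = 0.065) and with limma at both pseudocounts.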

How the results depend on the processing

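Of 88 called results for the 10 genes, 49 kept direction and call under every alternative, and 66 under every alternative but leaving a library out. By alternative, 88 were kept with no filter on low values, 83 with DESeq2, 82 with RLE scaling, 80 with only the groups compared, 74 with library totals, 69 and 68 with limma-trend (pseudocounts 1 and 0.1), and 366 of 448 when a library was left out. Of the 88, 2 reversed, each with library totals and limma at both pseudocounts. They were PHO89 in set2Δ at 3 h (0.0437, 0.0442 and 0.0443) and in H3K36A at 3 h (0.0201, 0.0175 and 0.0176). PHO89 in H3K36A at 1 h, not called, also reversed under these (0.1085, 0.1088 and 0.1095) and with only the groups compared (0.0007). PHO5 in WT at 1 h, not called, reversed to 0.044 without WT 1 h replicate 1 and ran to -0.586 without replicate 2. Reversals of other results that were not called are not listed.

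Counts of the 10 genes called changed as follows. In H3K36A at 3 h limma called 3 and 2 (pseudocounts 1 and 0.1; 7 in edgeR). In rph1Δ at 1 h DESeq2, no filter and only the groups compared called 1, and library totals and both limma fits 2. In set2Δ at 0 h both limma fits called 1 (3 in edgeR). For set2Δ against H3K36A, DESeq2, RLE scaling and library totals called 1 at 0 h, and limma at 0.1 and only the groups compared 2 at 1 h. For the change in H3K36A to 1 h, library totals and limma at 1 called 2, and to 3 h library totals and both limma fits 1. For that in set2Δ to 3 h, DESeq2, RLE scaling and only the groups compared called 1. Leaving out a library gave 1 to 3 in H3K36A at 0 h, 0 to 1 in rph1Δ at 1 h, 1 to 2 at 3 h, 0 to 1 in set2Δ against H3K36A at 0 h, and, for changes, 2 to 6 in rph1Δ to 3 h, 1 to 3 in set2Δ to 3 h, and 1 to 3 and 1 to 4 in H3K36A to 1 h and 3 h. The cause was not tested.

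Over all genes, with only the groups compared, 499 were called in rph1Δ at 0 h (314 in the fit of all groups), 656 in set2Δ at 0 h (1435), 1052 in rph1Δ at 3 h (1820), 884 for the rph1Δ change to 1 h (554), and 15 and 735 for set2Δ against H3K36A at 0 h and 3 h (177 and 305). The replicate numbers are not shown to pair the samples: over 66 pairs of groups the deviations of same-numbered libraries correlated at -0.406 to 0.279. With the replicate number as a block, 87 of the 88 calls were kept, PHO8 in H3K36A to 1 h being lost (-0.343, adjusted p = 0.0504), and 6 of the 10 were called in WT 3 h against 1 h and 4 in set2Δ at 0 h.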
